A study of Mus musculus with 6 samples.

Results

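The genes described here are 10 C-type lectin receptors of mouse myeloid cells: Clec7a, Clec4n, Clec4d, Clec4e, Clec5a, Clec4a1, Clec4a2, Clec4a3, Clec10a and Clec12a. They were taken as a named list of genes, matched by symbol to the NCBI gene numbers of the files, and 10 of 10 were found among the 17441 genes listed in any library. The rule used no measured value, though the list was chosen with earlier results of these data known. In the heart, RNA was sequenced from the tissue below the ligature, 3 days after surgery, in 6 libraries of male mice that were 12 weeks old. The study asked how loss of Card9 changes gene expression in the infarcted heart.

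There were 3 groups of 2 libraries each. WT sham were wild-type mice after a sham operation, and WT MI were wild-type mice after ligation of the left coronary artery, which causes a myocardial infarction (MI). Card9 KO MI were Card9 knockout mice after the same ligation. The methods place the knockout on a C57BL/6 background and describe wild-type littermates and C57BL/6 mice as controls, without saying which of these gave the sequenced samples. Sham-operated knockouts are not among the groups compared here, so genotype and infarct cannot be told apart in Card9 KO MI against WT sham.

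C-type lectin receptors are cell-surface proteins of macrophages, monocytes, neutrophils and dendritic cells that bind sugars of microbes or molecules released from damaged and dying cells. An activating receptor signals through its own tyrosine motif or through a partner chain, FcRγ (gene Fcer1g) or DAP12 (gene Tyrobp), which recruits the kinase Syk. Syk acts through protein kinase C delta on the adaptor Card9, which joins Bcl10 and Malt1 in a complex that drives NF-κB and the transcription of cytokine genes. Inhibitory receptors of the same family carry a motif that recruits the phosphatases Shp-1 (gene Ptpn6) and Shp-2 (gene Ptpn11). Signalling through Syk to Card9 is best described for Clec7a (Dectin-1, the beta-glucan receptor), Clec4n (Dectin-2, which binds mannans), Clec4d (MCL) and Clec4e (Mincle). The other 6 genes are relatives, some of them inhibitory, so a name that places all 10 upstream of Card9 is wider than this route.

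Card9 itself, the targeted gene (NCBI gene number 332579), was listed at 0.99 and 1.03 FPKM in WT sham, 3.39 and 5.08 in WT MI hearts, and 9.85 and 6.94 in hearts with the Card9 KO MI label. FPKM is the number of fragments per kilobase of transcript, scaled to the size of the library. Card9 was therefore not lower with that label than in WT MI: both values lay above both WT MI values. In WT MI against WT sham its log2(FPKM + 1) was higher by 1.36 (adjusted p = 0.00321, limma). Between Card9 KO MI and WT MI the difference on that scale was 0.85 (SE 0.23, adjusted p = 0.112, limma). Card9 did not reach 1 FPKM in both sham libraries and passed the filter on low values only with the infarct libraries. The filter thus favours a higher value of Card9 in WT MI than in WT sham. Which part of the gene was deleted is not given in the sources used here, so the values neither check the label nor replace it. Card9 KO MI below always means the libraries labelled so, and every direction against them rests on that label.

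In the mm9 genome, 9 of the 10 genes lie on chromosome 6. A block of 368.0 kb at chr6:122871866-123239889 holds 9 protein-coding genes, all of them C-type lectin receptors, in the order Clec4a1, Clec4a3, Clec4a4, Clec4b1, Clec4a2, Clec4b2, Clec4n, Clec4d and Clec4e. Members of the list made up 6 of these 9. Another block of 130.1 kb at chr6:129292709-129422790 has Clec12a at one end and Clec7a at the other, with Clec12b, Clec1a, Clec1b and Clec9a between them. Clec5a lies apart at chr6:40524897-40535804, and Clec10a is on chromosome 11, at chr11:69980125-69984336. No other annotated gene overlaps any of the 10.

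The 250 bases before the start of transcription are shown for 4 members that represent the 2 blocks and differ in their course after infarction. They are read 5′ to 3′ on the strand of the gene, from the RefSeq promoter table of GRCm38.p6, and each matched a single place in mm9 and overlapped no annotated exon. The mm9 positions are chr6:129422798-129423047 on the minus strand for Clec7a, chr6:129300012-129300261 on the plus strand for Clec12a, chr6:123211875-123212124 on the plus strand for Clec4d and chr6:123239890-123240139 on the minus strand for Clec4e. The Clec12a window lies inside the longer annotated span of that gene, in an intron. Capitals mark the letters GAGGAA or their reverse complement, the core of sites bound by the myeloid transcription factor PU.1.
Clec7a: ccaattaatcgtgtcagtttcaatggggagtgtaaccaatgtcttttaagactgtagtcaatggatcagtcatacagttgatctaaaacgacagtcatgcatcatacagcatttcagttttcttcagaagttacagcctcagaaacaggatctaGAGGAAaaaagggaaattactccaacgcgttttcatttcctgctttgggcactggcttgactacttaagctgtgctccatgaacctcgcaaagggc
Clec12a: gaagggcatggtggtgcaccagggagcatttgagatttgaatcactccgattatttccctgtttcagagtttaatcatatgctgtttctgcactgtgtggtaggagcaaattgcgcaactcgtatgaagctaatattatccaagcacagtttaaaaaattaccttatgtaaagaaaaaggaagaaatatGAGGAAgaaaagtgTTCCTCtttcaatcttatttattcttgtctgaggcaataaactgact
Clec4d: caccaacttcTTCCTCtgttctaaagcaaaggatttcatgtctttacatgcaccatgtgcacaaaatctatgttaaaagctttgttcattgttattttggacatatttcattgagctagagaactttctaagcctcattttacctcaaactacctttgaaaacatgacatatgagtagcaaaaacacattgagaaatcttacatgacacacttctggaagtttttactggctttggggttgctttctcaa
Clec4e: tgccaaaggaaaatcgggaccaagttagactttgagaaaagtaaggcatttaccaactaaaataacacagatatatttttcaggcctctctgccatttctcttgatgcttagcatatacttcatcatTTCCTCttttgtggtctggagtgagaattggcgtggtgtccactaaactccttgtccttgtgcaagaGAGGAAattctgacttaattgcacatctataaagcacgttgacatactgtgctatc
At least one GAGGAA on either strand was found in 6 of the 8 members in the table, and in 23.1% of the 27025 promoters of the same length. Clec4n and Clec10a had no entry. Clec4e, Clec12a, Clec4a1 and Clec5a had 2 matches each, Clec7a and Clec4d had 1, and Clec4a2 and Clec4a3 had none. In Clec12a the matches began 61 and 47 bases before the start, in Clec4e 123 and 56 bases, in Clec7a 96 bases and in Clec4d 240 bases. The C/EBP letters TTGCNNAA were in 2 of the 8 (9.55% of all promoters), an NF-κB pattern, GGG and CC with any 5 bases between them, in 1 of the 8 (45.4%) and the AP-1 letters TGANTCA in 1 of the 8 (6.87%), all on both strands. These are matches of letters and show neither binding nor its absence.

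The libraries were shallow. From the steps between low FPKM values, WT sham held about 3160000 and 3000000 fragments, WT MI about 4030000 and 3930000, and Card9 KO MI about 4290000 and 4120000. For a 2 kb transcript, 3 fragments equal 0.475 and 0.499 FPKM in WT sham, 0.372 and 0.382 for WT MI, and 0.349 and 0.364 for Card9 KO MI. In sham hearts the 10 receptors were thus measured from few fragments, from about 0 to 28.5 per gene and library, while in the infarcted hearts the estimates ran from 16.2 to 209.1. Fragments were estimated with the longest annotated coding transcript of each gene and cover counting error only.

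In WT sham hearts Clec4a1 was the most abundant of the 10, at 5.79 and 5 FPKM, above both libraries of every other member. The next 6 in order of their means were Clec7a, Clec4a3, Clec12a, Clec4n, Clec4a2 and Clec10a, with means from 2.04 down to 1.16 FPKM and each overlapping its neighbour. Clec5a was at 0.67 and 0.7 FPKM, above Clec4d and Clec4e. Clec4d was listed at 0.48 and 0 FPKM and Clec4e at 0 and 0.13, which are worth about 2 fragments and 1 fragment. Both were therefore at or under the level of 3 fragments in the sham heart.

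After infarction the order was different. In WT MI Clec4d (20.7 and 18.3 FPKM) and Clec4n (16.9 and 18.4) came first and overlapped each other, and Clec4a1 (14.4 and 16.5) followed below both. Clec4a3 and Clec7a came next, at means of 8.64 and 7.81 FPKM. Clec12a, Clec4a2, Clec4e, Clec5a and Clec10a lay between 7.20 and 3.64 FPKM, and neighbours in this order overlapped. Under the Card9 KO MI label Clec4a1 had the highest mean again, at 19.4 and 27.0 FPKM. Clec4a3, Clec4n, Clec12a and Clec4d followed at means from 18.6 to 13.5 FPKM, with overlap between neighbours, and Clec4e was last, at 3.77 and 1.72.

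**Figure D1:**
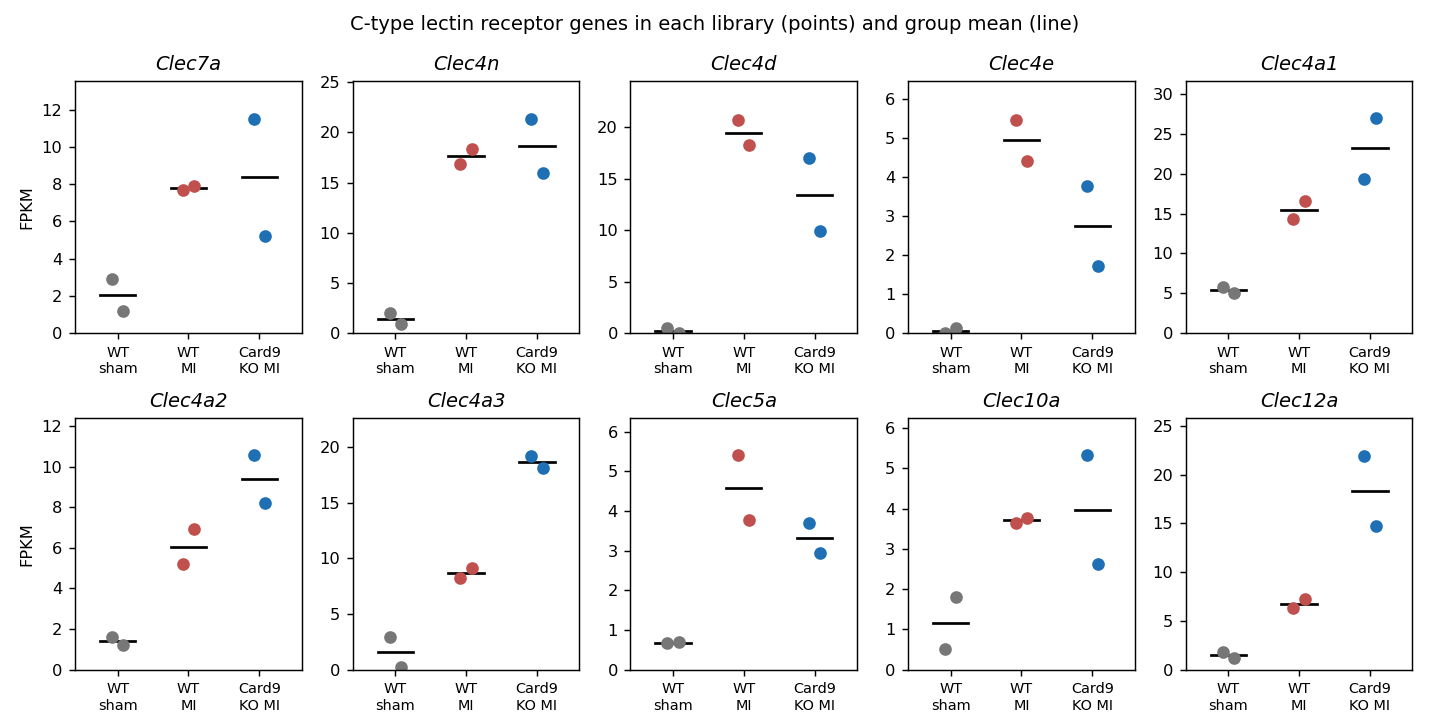
FPKM of each of the 10 receptor genes (vertical axis, from 0, with its own scale per gene) in the 2 libraries of WT sham, WT MI and labelled Card9 KO MI (points), with the group mean (line). All infarct libraries lie above both sham libraries for each gene. Clec12a, Clec4a3, Clec4a2 and Clec4a1 are higher in both Card9 KO MI libraries than in either of WT MI, while Clec4d, Clec4e and Clec5a are lower in both.

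WT MI against WT sham asks which receptors are more abundant in the infarcted heart. All 10 were higher in both WT MI libraries than in both WT sham libraries, as were 48.3% of the 13120 tested genes. With limma on log2(FPKM + 1), adjusted by the Benjamini-Hochberg method over all tested genes, 10 of 10 were called higher at an adjusted p below 0.05, where 27.7% of all tested genes were called higher and 9.39% lower. Of the 10, 6 (Clec4n, Clec4d, Clec4e, Clec4a3, Clec5a and Clec10a) did not reach 1 FPKM in both sham libraries and passed the filter on low values only with the infarct libraries. The filter thus favours a higher value after infarction for these 6, and the count of 10 and its median are descriptions. On the log2 scale the median change was 1.67 over the 10 and 0.19 over all tested genes. A fold change on this scale understates the change of a gene with low values. Relative to that median of all genes the members lay between 1.01 and 3.89. Upper-quartile scaling moved the median of all genes by -0.21 and the share of higher calls among all calls from 74.7% to 51.1%, and under it all 10 members were still positive, from 1.05 to 3.98, with 9 called. Tissue RNA cannot tell more cells that carry a receptor from more receptor RNA per cell.

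The receptors with the best-described route to Card9 are given first. Clec4n, whose protein binds mannans of fungi and mycobacteria, went from 1.96 and 0.88 FPKM in WT sham to 16.9 and 18.4 in WT MI. Both sham libraries were low, with 3.2 fragments in the lower one, and the groups did not overlap. The mean was 12.4-fold higher, a log2 fold change of 2.98 (SE 0.24, adjusted p = 0.000124, limma). Clec4d, which pairs with Mincle at the cell surface, went from 0.48 and 0 FPKM to 20.7 and 18.3. Its log2 fold change was 4.07 (SE 0.28, adjusted p = 6.44e-05, limma), and since sham was near 0 this size depends on the added FPKM, from 2.22 with 5 to 6.34 with 0.1. Clec4e, or Mincle, a receptor for mycobacterial glycolipid and for the nuclear protein Sf3b3 set free by dead cells, went from 0 and 0.13 FPKM to 5.48 and 4.43. Its log2 fold change was 2.48 (SE 0.29, adjusted p = 0.000596, limma), and 0.97 or 5.05 with an added FPKM of 5 or 0.1. No linear fold is given for Clec4d and Clec4e.

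Clec7a, or Dectin-1, was higher by less. Its values were 2.91 and 1.16 FPKM in WT sham and 7.70 and 7.91 in WT MI, so the WT MI libraries lay close together and above a wider sham pair. The mean was 3.84-fold higher and the log2 fold change was 1.60 (SE 0.37, adjusted p = 0.012, limma). Without WT sham replicate 2, WT MI replicate 1 or WT MI replicate 2 the adjusted p was 0.0683, 0.0651 and 0.0646, over a range of 0.00575 to 0.0683 for all alternatives tried. Clec5a, or MDL-1, which signals through DAP12, went from 0.67 and 0.70 FPKM to 5.41 and 3.77. The sham libraries lay close together and well below the infarct pair. The mean was 6.70-fold higher, a log2 difference of 1.71 (SE 0.22, adjusted p = 0.000854, limma).

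The relatives without a best-described activating route also rose in WT MI. Clec12a, or MICL, an inhibitory receptor for uric acid crystals of dead cells, went from 1.85 and 1.19 FPKM to 6.33 and 7.20, a mean 4.45-fold higher (log2 fold change 1.63, SE 0.22, adjusted p = 0.00119, limma). Clec4a2, the inhibitory receptor DCIR, went from 1.59 and 1.20 FPKM to 5.20 and 6.92, 4.34-fold. Clec4a1 and Clec4a3, its close relatives, went from 5.79 and 5 to 14.4 and 16.5 FPKM and from 2.96 and 0.28 to 8.19 and 9.09. In none of these did an infarct library fall to the sham range. Their log2 fold changes were 1.55 (adjusted p = 0.000991), 1.36 (adjusted p = 0.00098) and 2.10 (adjusted p = 0.00813) with limma for Clec4a2, Clec4a1 and Clec4a3. The sham libraries of Clec4a3 rested on about 12.2 and 1.1 fragments, and without WT MI replicate 2 its adjusted p was 0.0524 (range over the alternatives 0.000256 to 0.0524). Without WT sham replicate 1 or 2 the log2 fold change was 2.91 or 1.28.

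Clec10a, or MGL1, a receptor for sugars with galactose, had the lowest log2 fold change of the 10 on the scale with 1 FPKM added. By the fold of means Clec4a1 was lower, at 2.86-fold against 3.21-fold for Clec10a. The values of Clec10a were 0.51 and 1.80 FPKM in WT sham and 3.64 and 3.77 in WT MI, so the infarct libraries lay above a sham pair of wide spread. The log2 fold change was 1.19 (SE 0.35, adjusted p = 0.0316, limma). It was not called with the replicate number as a block (adjusted p = 0.0513), without the filter (0.0759), with upper-quartile scaling (0.0526), with quantile normalization (0.0902) or without WT sham replicate 1 (0.15), WT MI replicate 1 (0.117) or WT MI replicate 2 (0.122). The lowest over the alternatives was 0.0182. Without WT sham replicate 1 or 2 its log2 fold change was 0.75 or 1.64. Its transcripts share 14.3% of their stretches of 50 bases with those of Mgl2, a close copy, so fragments of these genes may be split between them. Clec4a2 shares 6.49% with other genes, most of it with Clec4a4. The other 8 share none.

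**Figure D2:**
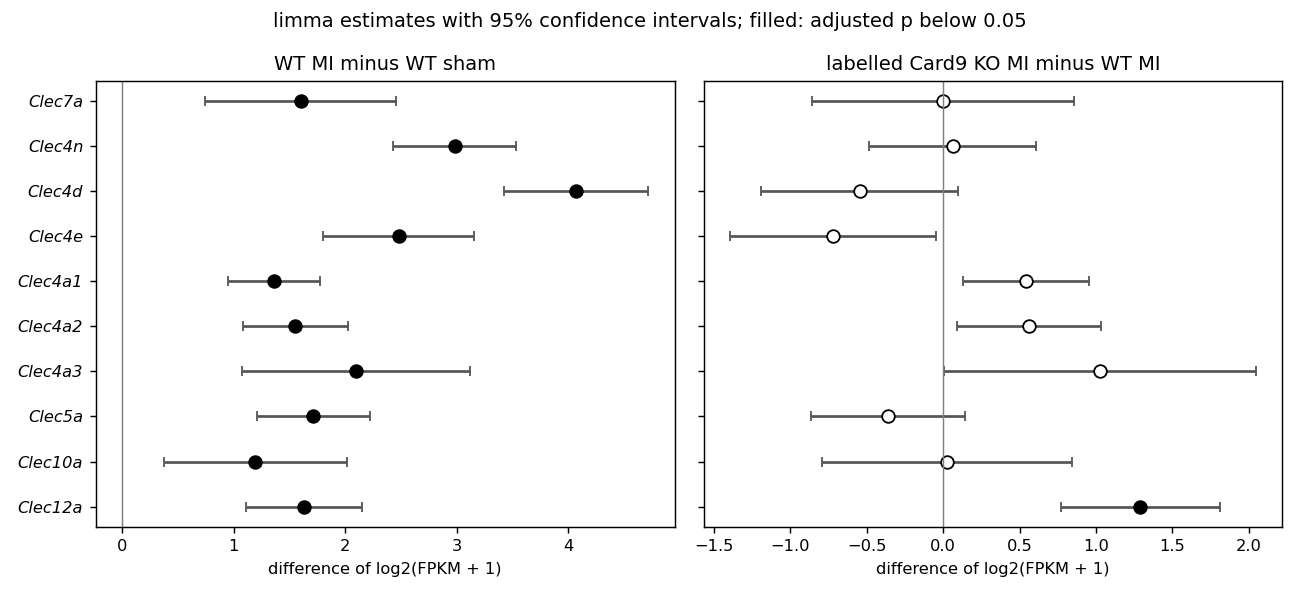
Difference of log2(FPKM + 1) (horizontal axis) for the 10 receptor genes, WT MI minus WT sham on the left and labelled Card9 KO MI minus WT MI on the right, with limma's 95% confidence interval (bars); filled points have an adjusted p below 0.05. All 10 are filled and positive on the left, and Clec12a alone is filled on the right, at 1.29.

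In Card9 KO MI against WT MI the receptors differed in direction. This comparison asks what the knockout changes after infarction, and it uses the WT MI libraries of the comparison above. Clec12a, Clec4a3, Clec4a2 and Clec4a1 were higher in both Card9 KO MI libraries than in either of WT MI, 4 of 10, where 30.8% of all tested genes were. Clec4d, Clec4e and Clec5a were lower in both, 3 of 10, where 21.9% of all tested genes were. Clec7a, Clec4n and Clec10a overlapped. These shares are near those of all genes. With limma 1 of 10 was called higher and 0 lower, where 0.816% of all tested genes were called higher and 0.587% lower. At an unadjusted p below 0.05 the numbers were 4 higher and 1 lower, and over all 13120 tested genes 1504 higher and 1125 lower. Over the 10 the median was 0.04 on the log2 scale, and over all tested genes it was 0.04. Of all calls in this comparison 58.2% were higher, and 46.4% with upper-quartile scaling.

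Clec12a was the member called. It stood at 6.33 and 7.20 FPKM in WT MI hearts and at 21.9 and 14.7 under the Card9 KO MI label, from about 56.7 and 62.9 fragments to 209.1 and 134.5. Both Card9 KO MI libraries were above both of WT MI, and they differed from each other by more than the WT MI pair did. The mean was 2.71-fold higher, with a log2 fold change of 1.29 (95% confidence interval 0.77 to 1.81, adjusted p = 0.0469, limma). The call lay close to the threshold: leaving out any one of the 6 libraries gave an adjusted p of 0.055 to 0.288, and the range over the alternatives was 0.0305 to 0.288. The log2 fold change was positive under each of them, from 0.97 to 1.56.

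Clec4a3 stood at 8.19 and 9.09 FPKM in WT MI hearts and 19.2 and 18.1 under the Card9 KO MI label. Each pair was tight and the groups were far apart, with a mean 2.16-fold higher. Its log2 fold change of 1.03 (95% confidence interval 0.00 to 2.05, adjusted p = 0.248, limma) had an SE of 0.44, estimated from all 3 pairs, of which the sham pair was the widest. In a fit of only WT MI and Card9 KO MI its adjusted p was 0.0311, without WT sham replicate 1 it was 0.0401 and without WT sham replicate 2 it was 0.0338, over a range of 0.0311 to 0.572. Clec4a2 was at 5.20 and 6.92 FPKM against 10.6 and 8.22, and Clec4a1 at 14.4 and 16.5 against 19.4 and 27.0. Neither pair overlapped, and their log2 fold changes of 0.56 (adjusted p = 0.185) and 0.54 (adjusted p = 0.152) did not pass limma's threshold. With 1 library left out the values ran from 0.38 to 0.74 for Clec4a2 and from 0.31 to 0.77 for Clec4a1.

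Clec4d and Clec4e, which lie next to each other in the genome, were listed lower. Clec4d was at 20.7 and 18.3 FPKM in WT MI hearts and at 17.0 and 9.88 under the Card9 KO MI label. Its log2 fold change was -0.55 (95% confidence interval -1.19 to 0.10, adjusted p = 0.323, limma), and between -0.91 and -0.18 with 1 library left out. Clec4e was at 5.48 and 4.43 against 3.77 and 1.72, a log2 difference of -0.72 (95% confidence interval -1.40 to -0.04, adjusted p = 0.222, limma). This difference was between -1.12 and -0.31 with 1 library left out. In both genes replicate 2 of Card9 KO MI was the lower one, and the gap between the groups was smaller than the gap inside the Card9 KO MI pair. Clec5a was at 5.41 and 3.77 against 3.69 and 2.95, a log2 difference of -0.36 (adjusted p = 0.403, limma), and its groups lay close to each other, at 3.77 and 3.69 FPKM. With 1 library left out the difference for Clec5a was between -0.57 and -0.15. The ratio of Clec4d to Clec4e was 3.78 and 4.12 in WT MI hearts and 4.52 and 5.74 with the Card9 KO MI label.

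Clec7a, Clec4n and Clec10a had log2 fold changes near 0. Clec7a was at 7.70 and 7.91 FPKM in WT MI hearts and at 11.5 and 5.20 under the Card9 KO MI label, one library above and the other below the WT MI pair. Its 95% confidence interval ran from -0.86 to 0.86 around 0.00. Clec4n was at 16.9 and 18.4 against 21.3 and 15.9 (0.06, interval -0.49 to 0.61), and Clec10a at 3.64 and 3.77 against 5.32 and 2.62 (0.02, interval -0.80 to 0.84). These intervals leave room for changes of either sign, and the signs of Clec7a and Clec10a turned under upper-quartile scaling and quantile normalization.

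Against WT sham, all 10 were higher in both Card9 KO MI libraries, as were 51.6% of all tested genes. By limma 10 of 10 were called higher, as were 34.8% of all tested genes. The same 6 members as in WT MI passed the filter on low values only with the infarct libraries. This favours a higher value for them, so the count of 10 is a description here too. The log2 fold changes ran from 1.22 for Clec10a to 3.53 for Clec4d, in the order of the main fit with 1 FPKM added. Over the alternatives Clec4d, near 0 in sham, was between 1.79 and 5.76. Clec12a had 2.92 in this comparison and 1.63 in WT MI, Clec4a3 3.12 and 2.10, Clec4d 3.53 and 4.07, Clec4e 1.76 and 2.48, and Clec5a 1.35 and 1.71. Clec7a had 1.60 in both. In Card9 KO MI against WT sham the adjusted p of Clec7a was 0.0522 without WT sham replicate 2 and 0.0557 without Card9 KO MI replicate 1 (lowest over the alternatives 0.00381). For Clec10a it was 0.0571 without the filter, 0.0982 with quantile normalization, 0.117 without WT sham replicate 1 and 0.149 without Card9 KO MI replicate 1 (lowest 0.0114), and its log2 fold change was 0.77 without WT sham replicate 1. Upper-quartile scaling moved the median of all genes here by -0.25 and the share of higher calls from 70.9% to 49.2%, with the members between 1.03 and 3.38. The sham libraries are shared by these comparisons, so the values are set side by side without a test, and genotype and infarct cannot be told apart in the first of each pair.

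The share of single receptors in their summed RNA does not depend on scaling between libraries. The 10 summed to 18.7 and 12.3 FPKM in WT sham, 93.9 and 96.3 in WT MI hearts, and 133.6 and 106.3 under the Card9 KO MI label. Clec7a, Clec4n, Clec4d and Clec4e together made up 28.6% and 17.6% of the sum in WT sham, 54.1% and 50.9% in WT MI hearts, and 40.1% and 30.8% with the Card9 KO MI label. Clec4a1, Clec4a2, Clec4a3 and Clec12a together made up 65.1% and 62.2% in WT sham, 36.3% and 41.3% after infarction, and 53.1% and 64.0% with the Card9 KO MI label. Within a library the ratio of Clec12a to Clec4d was 0.305 and 0.395 for WT MI and 1.29 and 1.49 for Card9 KO MI, without overlap. These pairs and groups of genes were picked after their values were seen. The group of 4 holds the members that were higher without overlap in Card9 KO MI, so its larger share there follows from the choice, and neither shares nor ratios were tested.

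**Figure D3:**
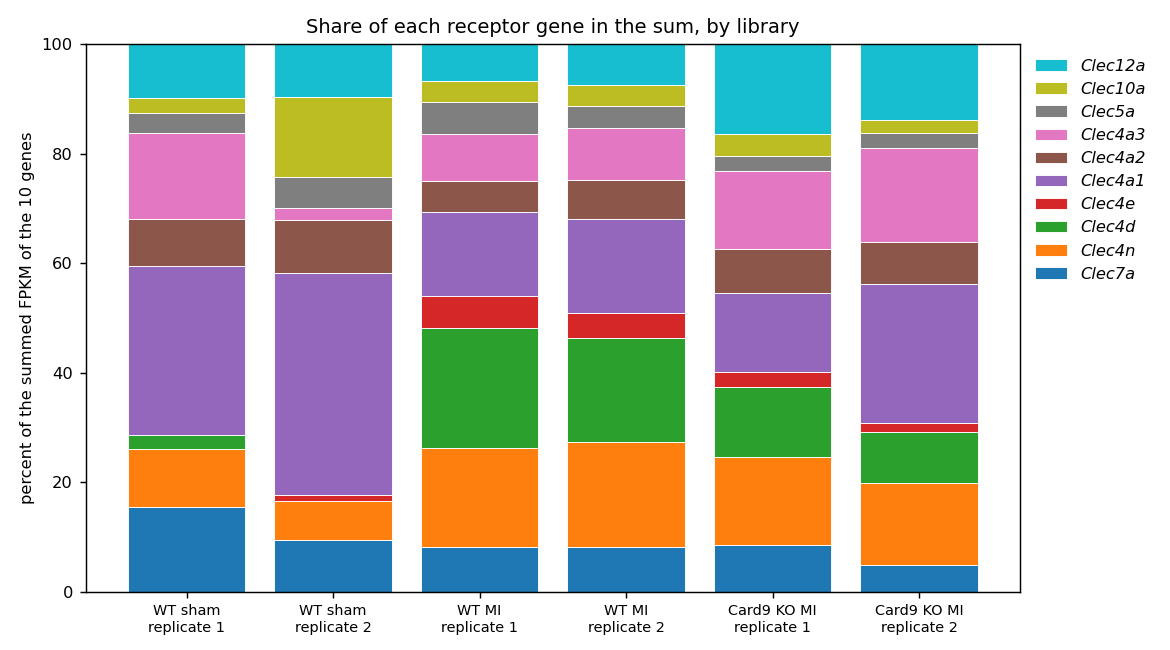
Percent of the summed FPKM of the 10 receptor genes (vertical axis) taken by each gene (colours) in each of the 6 libraries (bars). Clec4d takes 2.56% and 0% in WT sham and 22.1% and 19.0% in WT MI, and Clec12a takes 6.74% and 7.48% in WT MI and 16.4% and 13.8% under the Card9 KO MI label.

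Genes with the closest course over the 6 libraries were found by the root mean square difference of log2(FPKM + 1), each gene centred on its own mean, among the tested genes outside the list. Clec12a was nearest to Tagln (0.15), Racgap1 (0.17) and Col16a1 (0.17), which code for a protein of smooth muscle, one of cell division and a collagen. Tagln was at 37.6 and 44.6 FPKM in WT MI hearts and 125.2 and 105.7 with the Card9 KO MI label. Clec4e was nearest to Bst1 (0.12), Slpi (0.16) and Mcemp1 (0.20), 3 genes known from myeloid cells. Bst1 was at 8.34 and 8.15 FPKM after infarction in WT and 6.15 and 3.10 in Card9 KO. Clec4n was nearest to Dbn1 (0.10), Slc11a1 (0.11) and Cd52 (0.12), and Clec7a to Tmem273 (0.13), Pbdc1 (0.14) and Padi4 (0.16). Among the members the nearest pairs were Clec4a1 with Clec4a2 (0.25) and Clec4e with Clec5a (0.36).

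Of the proteins that some of these receptors bind, 5 of 5 genes rose in WT MI, where 27.7% of all tested genes did. Vim, whose product vimentin is bound by Dectin-1, was at 141.0 and 113.7 FPKM in WT sham, 721.0 and 724.1 in WT MI hearts, and 1060.6 and 814.1 under the Card9 KO MI label. Its log2 fold change in WT MI against WT sham was 2.50 (adjusted p = 4.08e-05, limma). Anxa1 had 2.46, Lgals9, which codes for galectin-9, 1.34, Anxa5 1.04 and Sf3b3 0.42 (adjusted p = 0.0281). The count of 5 was 4 with upper-quartile scaling, quantile normalization, eBayes without trend, or any 1 of the WT sham or WT MI libraries left out. Against WT MI, 0 of the 5 were called in either direction by limma in Card9 KO MI, 4 were higher and 0 lower at an unadjusted p below 0.05 (1504 and 1125 of all 13120 genes), with a median of 0.36.

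Of 21 genes of the route from the receptors to Card9, 20 were tested, and 12 rose and 1 fell in WT MI against WT sham, where 27.7% and 9.39% of all tested genes did, with a median log2 fold change of 1.01. Of the 20, 5 passed the filter only with the infarct libraries, 3 of the 12 among them. The partner chains were the most abundant. Fcer1g was at 25.5 and 21.0 FPKM in WT sham, 164.4 and 208.9 in WT MI hearts, and 315.7 and 247.7 with the Card9 KO MI label, and Tyrobp at 18.1 and 14.1, 117.5 and 109.0, and 196.7 and 141.8. Their log2 fold changes in WT MI were 2.95 and 2.75, and those of the kinases Lyn and Syk were 1.40 and 1.22. Against WT MI, limma called 0 of the 20 in Card9 KO MI, 7 were higher and 0 lower at an unadjusted p below 0.05 (1504 and 1125 of all 13120 genes), and the median was 0.32. Fcer1g and Tyrobp had 0.59 (adjusted p = 0.115) and 0.56 (adjusted p = 0.139), and Syk, at 23.8 and 20.5 against 22.9 and 20.1 FPKM, had -0.04 (adjusted p = 0.91). The one gene that fell in WT MI was Otud1, with -0.69, a deubiquitinase.

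Of 7 negative regulators 5 rose and 1 fell in WT MI, where 27.7% and 9.39% of all tested genes did. Ptpn6, the phosphatase recruited by inhibitory receptors, was at 4.71 and 5.51 FPKM in WT sham, 19.4 and 20.3 in WT MI hearts, and 31.4 and 24.9 with the Card9 KO MI label. Its log2 fold change in WT MI was 1.78 (adjusted p = 0.000144, limma), and that of Inpp5d, the lipid phosphatase Ship1, was 1.69. Ptpn11, at 50.8 and 51.7 FPKM in WT sham and 38.4 and 39.2 in WT MI, was the gene that fell, with -0.39 (adjusted p = 0.0126, limma). Rubcn had 0.17 (adjusted p = 0.34). Between Card9 KO MI and WT MI limma called 0 of the 7, 2 were higher and 0 lower at an unadjusted p below 0.05 (1504 and 1125 of all 13120 genes), and the median was 0.15.

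Of 24 other C-type lectin receptors 11 passed the filter on low values, and 2 of these rose and 0 fell in WT MI by limma (3 and 0 at an unadjusted p below 0.05), where 27.7% of all tested genes were called higher, with a median of 0.26. The 2 were Mrc1, the macrophage mannose receptor, at 6.99 and 7.48 FPKM in WT sham and 20.8 and 23.5 in WT MI (log2 fold change 1.49), and Mrc2, a collagen receptor of fibroblasts, at 5.93 and 5.11 against 15.1 and 19.9 (adjusted p = 0.000343). Clec2d and Colec12, also among the most abundant, had 0.24 and 0.26 in WT MI against WT sham and were not called in that comparison. In Card9 KO MI against WT sham 8 of the 11 were called higher, Clec2d and Colec12 among them, and 1 lower, where 34.8% and 14.3% of all tested genes were. Among the 8, Cd209a and Olr1 passed the filter only with the infarct libraries. Clec4b2, within the chromosome 6 block, was listed in no library, as were Cd209g and Cd207, and its neighbours Clec4a4 and Clec4b1 were above 0 in 1 library each, at 0.34 and 0.38 FPKM. The rise in WT MI did not extend to these 3 genes between the members at a level that this depth could show. Clec9a and Clec1a, between Clec12a and Clec7a, had -0.01 and 0.03. With limma 0 of the 11 were called in Card9 KO MI against WT MI, 4 were higher and 1 lower at an unadjusted p below 0.05 (1504 and 1125 of all 13120 genes), and the median was 0.45.

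Of 15 genes that respond to this pathway 10 were tested, and 7 rose and 0 fell in WT MI against WT sham by limma (7 and 1 at an unadjusted p below 0.05). Of all tested genes 27.7% rose and 9.39% fell, and the median log2 fold change of the 10 was 2.09. All 7, and 8 of the 10 tested, passed the filter only with the infarct libraries, so count and median are no support for a rise of the list. Cxcl1, a chemokine for neutrophils, was at 0.33 and 1.05 FPKM in WT sham, 13.9 and 14.3 in WT MI hearts, and 8.61 and 6.66 with the Card9 KO MI label. Both Card9 KO MI values were below both of WT MI, and the log2 fold change was -0.81 (adjusted p = 0.123, limma). Il1b was at 8.65 and 9.47 FPKM in WT MI hearts against 13.6 and 9.20 in Card9 KO MI, with overlap, and Ccl3 at 6.01 and 7.81 against 9.81 and 8.98. Nos2 had 0.24 in WT MI and was not called. By limma 0 of the 10 were called in Card9 KO MI against WT MI, 2 were higher and 2 lower at an unadjusted p below 0.05 (1504 and 1125 of all 13120 genes), and the median was 0.07.

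Markers of the cells that carry these receptors also differed between the groups. Of 14 macrophage markers 14 rose in WT MI, where 27.7% of all tested genes did. Of these, Ms4a7 passed the filter only with the infarct libraries. The 14 summed to 412.7 and 352.4 FPKM in WT sham, 1537.7 and 1986.4 in WT MI hearts, and 3189.5 and 2323.4 under the Card9 KO MI label. Against WT MI 1 of the 14, Cx3cr1, was called higher (log2 1.09, adjusted p = 0.0337, limma) in Card9 KO MI, and with any 1 of the WT MI or Card9 KO MI libraries left out 0 were called higher. Of all tested genes 0.816% were called higher in that comparison. At an unadjusted p below 0.05, 9 of the 14 were higher and 0 lower (1504 and 1125 of all 13120 genes). Without overlap 10 were higher, as were 30.8% of all tested genes. Lyz2 was the most abundant, at 617.3 and 830.2 FPKM in WT MI hearts against 1168.5 and 821.5 in Card9 KO MI, with overlap. No macrophage marker was at 0 in all libraries. Of 6 resident macrophage markers 3 rose in WT MI, where 27.7% of all tested genes did. Of these 3, Vsig4 passed the filter only with the infarct libraries, so its rise is no support. The 6 summed to 46.6 and 40.6 FPKM in WT sham, 97.2 and 97.8 in WT MI hearts, and 74.5 and 61.9 with the Card9 KO MI label, where 1, Lyve1, was called lower (-1.11, adjusted p = 0.0367, limma). Of all tested genes 0.587% were called lower in Card9 KO MI against WT MI. At an unadjusted p below 0.05, 4 of the 6 were lower and 0 higher (1125 and 1504 of all 13120 genes). F13a1 was the most abundant of these, at 52.6 and 47.6 FPKM in WT MI hearts against 37.4 and 33.2 in Card9 KO MI.

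Neutrophil markers were listed lower in Card9 KO MI than in WT MI but did not pass the test. Their sum was 7.64 and 5.40 FPKM in WT sham, 212.0 and 93.2 in WT MI hearts, and 59.9 and 46.7 with the Card9 KO MI label. Of 12 markers 6 were tested and 6 rose in WT MI, where 27.7% of all tested genes did, 4 of them tested only through their infarct values. All 6 were lower in both Card9 KO MI libraries than in either of WT MI, as were 21.9% of all tested genes. By limma 0 were called, and at an unadjusted p below 0.05, 0 were higher and 2 lower (1504 and 1125 of all 13120 genes). S100a9, the most abundant, was at 94.0 and 39.2 FPKM in WT MI hearts against 21.2 and 14.7 in Card9 KO MI. Of the 12 markers, Ly6g, Camp and Elane were listed in no library. Of 5 monocyte markers, which summed to 1.68 and 2.87 FPKM in WT sham, 133.4 and 113.6 in WT MI hearts and 87.7 and 92.8 with the Card9 KO MI label, 5 rose in WT MI, and all 5 passed the filter only through infarct libraries, so this count is no support for a rise. Chil3 had the highest mean over the 6 libraries, at 86.5 and 57.2 FPKM in WT MI hearts against 13.7 and 12.1 in Card9 KO MI. It was called lower (-2.36, adjusted p = 0.00729, limma), as were 0.587% of all tested genes. The other 4 monocyte markers had positive log2 fold changes. The part of these cells in the receptor values was not tested.

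Lymphocyte and dendritic cell markers were low in every library. Dendritic cell markers summed to 7.38 and 4.47 FPKM in WT sham, 9.64 and 10.3 in WT MI hearts and 16.2 and 14.7 with the Card9 KO MI label, with Zbtb46 the highest by its mean over the 6 libraries and Itgax above it in replicate 1 of WT MI and of Card9 KO MI. T cell markers summed to 2.92 to 5.01 FPKM, B cell markers to 1.31 to 4.91, and NK cell markers to 0.06 to 1.81. Cd3d, Cd79b and Eomes had the highest means of these lists over the 6 libraries, though not the highest value in each library. Of 3 dendritic cell markers tested 1, Itgax, rose in WT MI, and of 2 tested for B cells 1, where 27.7% of all tested genes did. Of 2 tested for T cells 0 rose and 0 fell, also at an unadjusted p below 0.05. Itgax, Batf3, Cd8a and both B cell genes were tested only through their infarct values, so these 2 rises are no support. No one of the 3 NK cell markers passed the filter. In Card9 KO MI against WT MI limma called 0 of these 7, and 0 had an unadjusted p below 0.05.

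**Figure D4:**
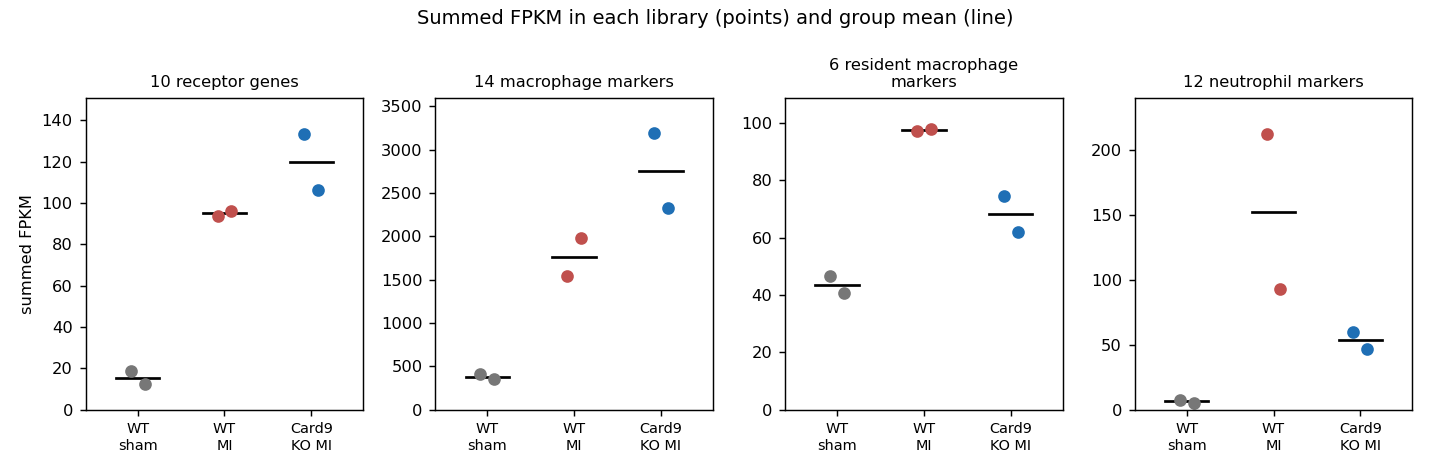
Summed FPKM (vertical axis, from 0) of the 10 receptor genes, 14 macrophage markers, 6 resident macrophage markers and 12 neutrophil markers in the 2 libraries of each group (points), with the group mean (line). The macrophage sum is highest under the Card9 KO MI label, at 3189.5 and 2323.4, and the neutrophil and resident macrophage sums are highest in WT MI.

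Set against the macrophage markers, the receptors differed from each other. Per 100 FPKM of macrophage markers the 10 summed to 4.54 and 3.50 FPKM in WT sham, 6.11 and 4.85 in WT MI hearts, and 4.19 and 4.58 under the Card9 KO MI label. Clec12a was at 0.412 and 0.363 per 100 FPKM in WT MI hearts against 0.687 and 0.632 in Card9 KO MI, still without overlap. Clec4a3 was at 0.533 and 0.458 against 0.600 and 0.779, also without overlap. Clec4a2 was at 0.338 and 0.348 against 0.331 and 0.354, where the WT MI pair lay within the other, and Clec4a1 at 0.934 and 0.833 against 0.607 and 1.16. Clec4d was at 1.35 and 0.919 against 0.534 and 0.425, and Clec4n at 1.10 and 0.926 against 0.668 and 0.685, both lower without overlap. Clec7a was at 0.501 and 0.398 against 0.361 and 0.224, and Clec4e at 0.356 and 0.223 against 0.118 and 0.074. Clec5a was at 0.352 and 0.190 against 0.116 and 0.127, and Clec10a at 0.237 and 0.190 against 0.167 and 0.113. Measured in this way 6 of the 10 were lower in Card9 KO MI without overlap, where 67.7% of all tested genes were, since the macrophage sum itself was higher there. The other 4 were 2 that were higher, where 2.75% of all tested genes were, and 2 that overlapped. The macrophage markers are themselves carried by several cell types and the ratios were not tested.

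Markers of the heart wall differed too. Of 7 cardiomyocyte markers 0 rose and 5 fell in WT MI, where 27.7% and 9.39% of all tested genes did. The 7 summed to 39797.0 and 41405.4 FPKM in WT sham, 25277.5 and 25862.6 in WT MI hearts, and 21333.6 and 24742.9 with the Card9 KO MI label. Actc1 had the highest mean over the 6 libraries, at 7909.5 and 8909.9 FPKM in WT MI. Of 5 fibroblast markers 3 rose in WT MI, where 27.7% of all tested genes did. The 5 summed to 407.0 and 397.5 FPKM in WT sham, 714.9 and 982.9 in WT MI hearts and 1308.6 and 1263.1 with the Card9 KO MI label. Col1a1, with the highest mean over the 6 libraries, at 359.1 and 515.6 FPKM in WT MI, was at 931.6 and 870.3 under that label (log2 1.06, adjusted p = 0.0337, limma). Of all tested genes 0.816% were called higher in Card9 KO MI against WT MI. The other 4 fibroblast markers were not called there and differed in sign. Tcf21 had 0.62, Lum 0.34, Dcn -0.16 and Pdgfra -0.52 on the log2 scale. Of 5 endothelial markers 2 rose and 1 fell in WT MI, where 27.7% and 9.39% of all tested genes did. The sums of the 5 ran from 242.1 to 312.9 FPKM over the 6 libraries. Cdh5, the most abundant, was at 97.5 and 95.5 FPKM in WT MI hearts against 128.2 and 124.3 in Card9 KO MI. The tissue labelled heart thus held its defining markers in all 6 libraries. FPKM is relative to all fragments of a library, so a lower share of cardiomyocyte RNA raises the values of other genes.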

How the data were processed

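Heart tissue below the ligature was sequenced in 6 libraries, 2 per group, grouped by their labels. The authors enriched mRNA, mapped reads to mm9 (their notes name BWA and Bowtie2) and deposited FPKM per NCBI gene number, to 2 decimals, for genes above 0. The annotation and strand setting are not given in the sources used here. Genes not listed were set to 0. Of 17441 gene numbers, 17390 matched a symbol in a table of GRCm38.p6, used for names only. Positions are from GENCODE for mm9.

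Depth was estimated from the steps of low values in genes with 1 annotated transcript. Only 66.1% to 71.4% of these came out whole within 0.1 of a fragment, so no count test was run. limma 3.58.1 (R 4.3.3; lmFit, eBayes with trend) was fitted to log2(FPKM + 1) of 13120 genes that reached an FPKM of 1 in 2 or more libraries, with 3 groups in one fit, Benjamini-Hochberg adjustment over all genes and calls at an adjusted p below 0.05. It was tested on simulated data of 12037 genes, where 149 of 150 genes changed 2-fold or more were recovered, with 10 false calls. The simulated libraries had one spread for all genes and no counting error, and genes with low sham values were left unchanged. They therefore do not speak for members with few fragments in sham. With 2 libraries against 2, an exact permutation test cannot go below 0.333, and none was run. Whether the libraries came from separate animals is not given per sample, so p-values measure the spread between these samples. Python 3.11.15 was used for levels and sequences.

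Genes named are the 10 members, Card9, the 4 most abundant genes of each pathway list and any called in Card9 KO MI against WT MI, the 3 nearest genes of Clec7a, Clec4n, Clec4e and Clec12a, and of each marker list the most abundant gene (by its mean over the 6 libraries) and those at 0 in every library. Pathway lists were Syk-Card9 signalling, negative regulators, other C-type lectin receptors, protein ligands and response genes. Marker lists covered macrophages, resident macrophages, monocytes, neutrophils, dendritic, T, B and NK cells, cardiomyocytes, fibroblasts and endothelial cells. Other genes were chosen after their values were seen. The members and lists were chosen with earlier results of these data known. The alternatives changed one choice at a time: 0.1 or 5 FPKM added, the filter dropped or set to a mean of 5 FPKM, scaling by upper quartile or by quantiles, a fit on 2 groups, no trend in eBayes, a block for the replicate number, and single libraries left out.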

Additional observations from a re-analysis of the deposited data

How the results depend on the processing

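Over 15 alternatives each (14 where a mean FPKM of at least 5 removed the gene), the 10 members kept the sign of their log2 fold change in WT MI against WT sham, with 136 of 147 values on the same side of the threshold, and in Card9 KO MI against WT sham, with 141 of 147. In WT MI against WT sham 7 to 10 members were called higher, and with a mean FPKM of at least 5 only 7 were tested. In Card9 KO MI against WT MI 124 of 147 values were on the same side, 11 were no longer called, 3 were newly called and 9 changed sign. Those 9 belong to log2 fold changes near 0: Clec7a was -0.011 with an added FPKM of 0.1, -0.047 with scaling by the upper quartile, -0.078 after quantile normalization and between -0.51 and 0.51 with 1 library left out. Clec10a was -0.018 with scaling by the upper quartile, -0.078 after quantile normalization and between -0.38 and 0.43 with 1 library left out, and Clec4n was between -0.14 and 0.26. The cause was not tested.

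The 1 member called higher in Card9 KO MI against WT MI became 0 with an added FPKM of 0.1, without the filter, with eBayes without trend and with the replicate block, and 0 to 1 with 1 library left out. The gene behind a count of 1 was Clec4a3 in place of Clec12a in the fit of 2 groups and without either WT sham library. Over all tested genes the 107 higher and 77 lower calls became 47 and 33 with an added FPKM of 0.1, 200 and 112 with 5, 7 and 5 without the filter, 148 and 136 with a mean FPKM of at least 5, 69 and 32 in the fit of 2 groups, 40 and 18 without trend, 45 and 26 with the block, and 3 to 63 and 5 to 33 with 1 library left out. In WT MI against WT sham the 3637 and 1232 calls became 2453 and 2351 after scaling by the upper quartile, 2288 and 2416 after quantile normalization, and 2256 to 3487 and 627 to 1193 with 1 library left out.

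Same-numbered libraries shared no deviation (r = 0.002, 0.02 and -0.008 over genes), so the numbers do not pair them. With the replicate block 0 macrophage markers were called higher in Card9 KO MI in place of 1, and 1 neutrophil marker lower in place of 0. Macrophage markers called higher were 4 with an added FPKM of 5, 5 with a mean FPKM of at least 5, 2 with quantile normalization, 0 without the filter or without trend, and 0 to 1 with 1 library left out. Other C-type lectin receptors went from 0 to 1 higher and 1 lower with an added FPKM of 5, and to 1 lower under the filter at a mean of 5, upper-quartile scaling or quantile normalization. Response genes went from 0 to 1 higher and 1 lower with an added FPKM of 5.

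In WT MI against WT sham, negative regulators called higher were 3 in place of 5 under the filter at a mean of 5, upper-quartile scaling or quantile normalization and 3 to 5 with 1 library left out, and those called lower 0 to 1. Genes of the route to Card9 called lower were 2 in place of 1 under both scalings. Response genes called higher were 3 in place of 7 with a mean FPKM of at least 5, and called lower 1 in place of 0 under both scalings and without trend. Calls of resident macrophage, monocyte, fibroblast, cardiomyocyte and endothelial markers were not repeated under the alternatives. A library left out leaves its group with 1 sample, assumed to vary like the others. At the depth of these libraries, values of the members in sham rest on few fragments.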
